A study of Mus musculus with 9 samples.

Results

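In all, 10 genes of the S100 and annexin families were followed through pressure overload of the mouse heart: S100a4, S100a6, S100a8, S100a9, S100a10 and S100a11, and Anxa1, Anxa2, Anxa3 and Anxa5. They were chosen by gene symbol, with earlier results of these data known. Each is read by 1 of the 20239 probe sets that the array annotation assigns to a single gene, so the set makes up 10 of 20239 genes. Of the 10 genes, 7 were tested. S100a4, S100a8 and S100a9 fell below the filter on low signal and are described by their values.

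Hearts came from male C57BL/6 mice, 3 per group, and 1 array was hybridised per heart. At 8 weeks of age every mouse received an adeno-associated virus (AAV), and 4 weeks later either transverse aortic constriction (TAC), which narrows the aorta and loads the left ventricle, or a sham operation. Hearts were taken 4 weeks after surgery. In the sham group and in the first TAC group (TAC-luciferase) the virus carried luciferase. In the second TAC group (TAC-HDAC4-NT) it carried HDAC4-NT, amino acids 1 to 201 of the histone deacetylase HDAC4. Both cargoes were under an MLC (myosin light chain) promoter, a kind used to direct expression to heart muscle cells; the sources used here do not say which MLC promoter it was. All 3 groups thus carried a virus, none was left uninjected, and no sham group with HDAC4-NT was measured, so HDAC4-NT could be compared only under TAC. Whole-heart RNA mixes all cell types, and in such tissue a change in the number of cells of a type and a change in RNA per cell cannot be told apart.

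S100 proteins are small proteins with paired EF-hand calcium-binding loops that mostly work as dimers, inside cells by binding target proteins and, when released, as signals to neighbouring cells. Annexins bind negatively charged membrane lipids in the presence of calcium and take part in membrane repair, vesicle traffic and the control of inflammation. The families meet in stable pairs: S100a10, which has lost calcium binding, joins Anxa2 at the plasma membrane, and S100a11 binds Anxa1. S100a8 and S100a9 form calprotectin, a major protein of the neutrophil cytoplasm that, once released, acts on Toll-like receptor Tlr4 and on the receptor Ager.

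Of the 10 genes, 7 lie on chromosome 3 in the RefSeq annotation (GRCm38.p6): Anxa5 and all 6 S100 genes. S100a4, S100a6, S100a8 and S100a9 belong to one run of S100 genes, with S100a11 and S100a10 after it. Anxa1 lies on chromosome 19, Anxa2 on chromosome 9 and Anxa3 on chromosome 5. Promoter windows were matched by symbol for 8 of the 10 genes, all but S100a10 and Anxa3. The windows of S100a11, Anxa1, Anxa2 and Anxa5 are shown because these are the genes with a window that rose in both TAC groups. Each window holds the 250 bases before the RefSeq start of the gene, read 5′ to 3′ on the gene's own strand, and capitals mark the AP-1 motif TGANTCA and the TATA box TATAAA. The S100a11 window is chr3:93520246-93520495, + strand, that of Anxa1 is chr19:20390672-20390921, - strand, that of Anxa2 is chr9:69453433-69453682, + strand and that of Anxa5 is chr3:36475888-36476137, - strand, all in GRCm38.p6.
S100a11: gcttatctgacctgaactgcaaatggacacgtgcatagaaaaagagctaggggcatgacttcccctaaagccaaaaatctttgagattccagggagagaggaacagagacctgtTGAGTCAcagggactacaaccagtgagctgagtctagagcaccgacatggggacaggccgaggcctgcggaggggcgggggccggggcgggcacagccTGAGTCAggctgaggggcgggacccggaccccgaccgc
Anxa2: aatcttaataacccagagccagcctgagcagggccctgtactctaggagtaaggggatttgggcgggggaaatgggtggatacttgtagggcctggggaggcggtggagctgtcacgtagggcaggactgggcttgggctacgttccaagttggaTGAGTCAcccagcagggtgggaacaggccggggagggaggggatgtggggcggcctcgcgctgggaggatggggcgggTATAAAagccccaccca
Anxa1: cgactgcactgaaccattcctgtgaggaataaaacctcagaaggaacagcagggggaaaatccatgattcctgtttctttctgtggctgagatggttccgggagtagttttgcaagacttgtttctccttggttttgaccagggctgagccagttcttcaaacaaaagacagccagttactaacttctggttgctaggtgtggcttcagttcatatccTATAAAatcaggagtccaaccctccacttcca
Anxa5: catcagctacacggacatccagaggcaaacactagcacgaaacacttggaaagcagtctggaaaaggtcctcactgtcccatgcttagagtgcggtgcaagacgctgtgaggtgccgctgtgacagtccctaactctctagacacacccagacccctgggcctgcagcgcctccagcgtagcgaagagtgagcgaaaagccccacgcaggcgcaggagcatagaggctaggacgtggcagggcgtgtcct

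No motif searched was present in all 4 of these windows. AP-1, the site of Fos and Jun dimers, was present in 2 of the 8 windows and in 6.7% of all 32851 RefSeq windows of the same length: S100a11 held it 136 and 38 bases before the start and Anxa2 held it 95 bases before the start. The TATA box stood in 4 of 8 windows, those of S100a4, S100a8, Anxa1 and Anxa2, and in 12.4% of all windows. The SP1 motif GGGCGG was found in 3 of 8 (S100a9, S100a11 and Anxa2; 32.7% of all), the NF-kB motif in 5 of 8 (S100a4, S100a6, S100a11, Anxa1 and Anxa5; 45.8%) and the TEAD motif GGAATG in 1 of 8, Anxa1 (12.6%). An SP1 match and an NF-kB match overlapped in the S100a11 window. The cyclic AMP response element TGACGTCA (1.5% of all windows), the MEF2 motif (3.2%) and the glucocorticoid response element (0.4%) were found in 0 of 8. Both strands were searched, and a match describes the letters of the window, not a bound site.

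Most of the tested genes were higher after TAC with luciferase than after the sham operation with the same virus. S100a11 and Anxa2 rose most, by 2.20-fold and 2.10-fold, followed by Anxa5 at 1.55-fold, Anxa1 at 1.49-fold and Anxa3 at 1.42-fold. In all, 5 of the 7 tested genes rose at an adjusted p under 0.05 and 0 fell. Of all 12597 genes tested 26.1% passed, 11.2% higher and 14.9% lower. All tests are limma fits over the 9 arrays with Benjamini-Hochberg adjustment over the 12597 genes. The median change of the 7 tested genes was 0.58 on the log2 scale, against -0.01 over all genes tested. Over all 10 genes without the filter the median was 0.53. In 6 of the 7 genes every TAC-luciferase heart lay above every sham heart, a separation found in 15.9% of all genes tested. Because the genes were chosen with earlier results of these data known, these shares and medians describe the set and are no test of it.

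The annexins are given first. Anxa2, which binds S100a10 and plasminogen activators at the cell surface, had log2 signals of 7.45, 7.54 and 8.06 in the sham hearts, 8.70, 8.83 and 8.74 in the TAC-luciferase hearts and 8.67, 8.83 and 8.78 in the TAC-HDAC4-NT hearts. Sham heart 3 was the highest of its group, and the lowest TAC heart still lay above it. The change in TAC-luciferase was 1.07 on the log2 scale (SE 0.14, 95% interval 0.76 to 1.38, adjusted p = 0.000591). In TAC-HDAC4-NT it was also 1.07 (SE 0.14, adjusted p = 0.000647). Group means with their SD (n = 3) were 7.69 ± 0.33 in sham, 8.76 ± 0.07 in TAC-luciferase and 8.76 ± 0.08 in TAC-HDAC4-NT, so the TAC hearts varied less among themselves than the sham hearts did; that difference in spread was not tested.

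Anxa5, the annexin whose binding to exposed phosphatidylserine is used to detect dying cells, showed a tight sham group. It read 11.14, 11.15 and 11.10 in sham, 11.83, 11.61 and 11.84 in TAC-luciferase and 11.61, 11.61 and 11.77 in TAC-HDAC4-NT. No TAC heart came near the sham range. The rise was 0.63 (SE 0.07, adjusted p = 0.000341) in TAC-luciferase and 0.53 (SE 0.07, adjusted p = 0.00088) in TAC-HDAC4-NT, or 1.45-fold in the latter.

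Anxa1, an anti-inflammatory annexin whose released form acts on formyl peptide receptors, stepped up across the 3 groups. Its signal was 6.05, 5.87 and 6.14 in sham, 6.48, 6.55 and 6.76 in TAC-luciferase and 6.86, 6.81 and 7.01 in TAC-HDAC4-NT. The 3 groups did not overlap, but the difference between the TAC groups did not pass (0.30, adjusted p = 0.194). HDAC4-NT hearts lay wholly above the TAC-luciferase hearts in 11.6% of all genes tested. Against sham the change was 0.58 (SE 0.09, adjusted p = 0.00216) in TAC-luciferase and 0.88 (SE 0.09, 1.84-fold, adjusted p = 0.00026) in TAC-HDAC4-NT.

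Anxa3, a less studied family member, was measured at 7.59, 7.54 and 7.80 in sham, 7.97, 8.23 and 8.25 in TAC-luciferase and 8.07, 7.97 and 8.13 in TAC-HDAC4-NT. Both TAC groups cleared the sham range and overlapped each other. The rise was 0.50 (SE 0.09, adjusted p = 0.00405) in TAC-luciferase and 0.41 (SE 0.09, 1.33-fold, adjusted p = 0.0113) in TAC-HDAC4-NT. In a fit without TAC-luciferase hearts 2 and 3, which keeps 1 heart in that group (the lowest of the 3 for Anxa3) and assumes that it varies like the other groups, the Anxa3 change against sham was 0.33 (adjusted p = 0.0959).

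**Figure D1:**
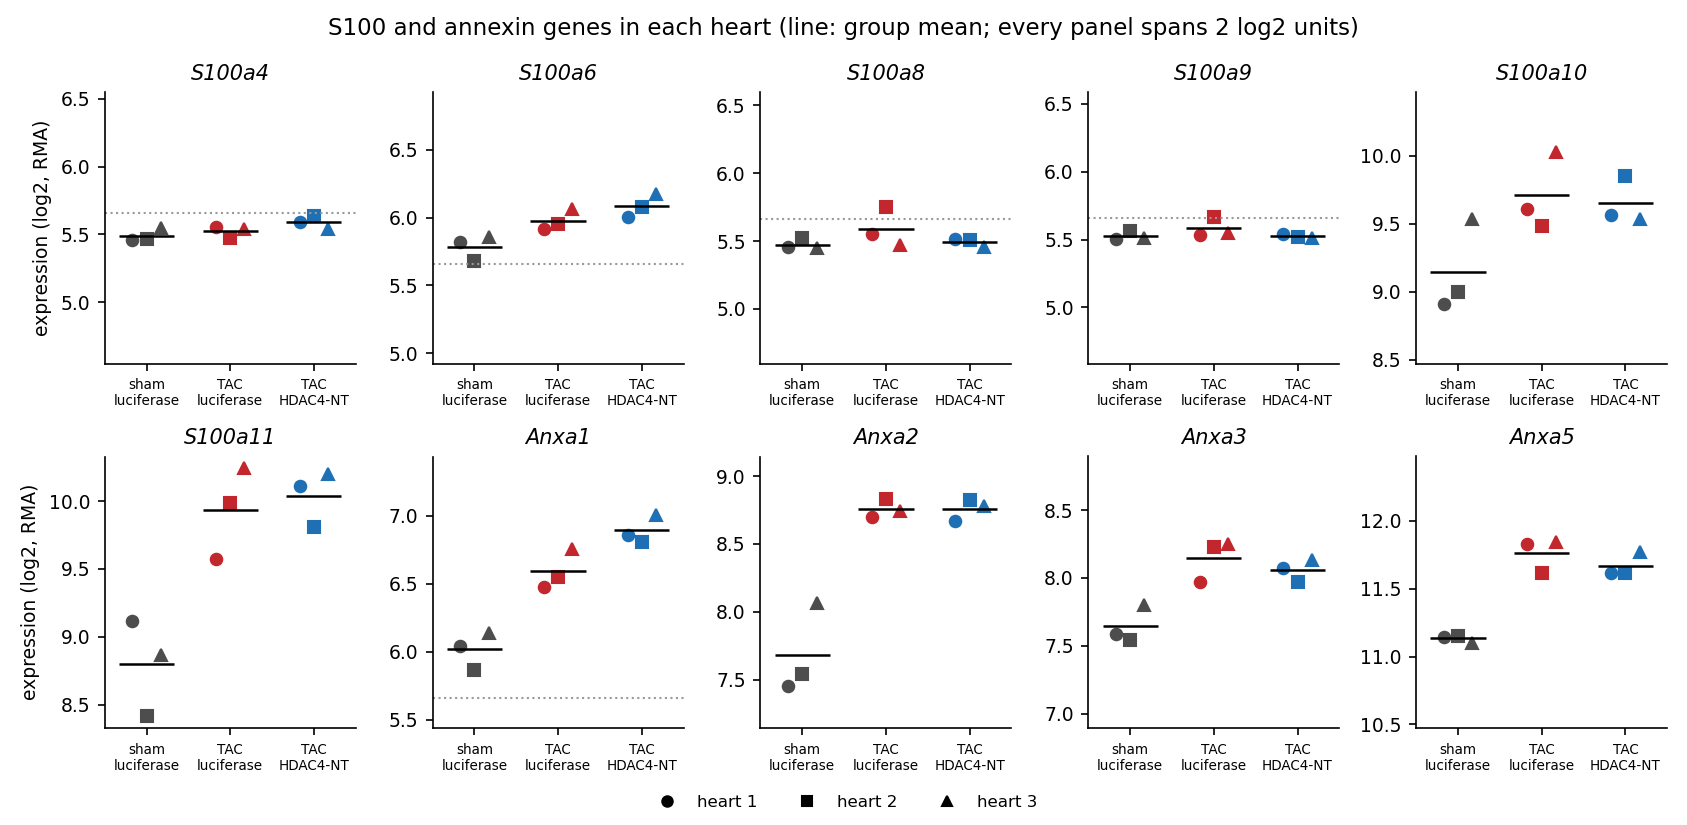
Log2 signal of the 10 S100 and annexin genes (vertical axis, each panel spanning 2 log2 units) in the sham, TAC-luciferase and TAC-HDAC4-NT hearts. Marker shapes are hearts 1 to 3, black lines are group means, and the dotted line is the filter value of 5.66; Anxa2 lies between 7.45 and 8.06 in sham and between 8.67 and 8.83 in all TAC hearts, while S100a4, S100a8 and S100a9 stay near or below the dotted line.

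Among the S100 genes, S100a11 changed most. S100a11, the binding partner of Anxa1, had log2 signals of 9.11, 8.42 and 8.86 in sham, 9.57, 9.99 and 10.24 in TAC-luciferase and 10.11, 9.81 and 10.20 in TAC-HDAC4-NT. All 6 TAC hearts exceeded all sham hearts. The change was 1.14 (SE 0.20, 95% interval 0.68 to 1.60, adjusted p = 0.00357) in TAC-luciferase and 1.24 (SE 0.20, 2.36-fold, adjusted p = 0.00244) in TAC-HDAC4-NT. Its spread was wide, with an SD of 0.35 in sham, and the fit that keeps only TAC-luciferase heart 1, the lowest of its group, gave 0.78 (adjusted p = 0.0742). A separate probe set carries the pseudogene S100a11-ps, a near copy of S100a11, and the sources used here do not say how the probes divide signal between the copies. S100a11-ps was above the filter value in 0 sham hearts, so it entered the filtered test only through the TAC groups. In the fit without the filter it was 0.28 higher in TAC-luciferase (adjusted p = 0.00592) and 0.18 higher in TAC-HDAC4-NT (adjusted p = 0.0346). With the filter, the latter call was lost without any 1 of sham hearts 2 or 3, TAC-luciferase heart 2 or the 3 TAC-HDAC4-NT hearts (adjusted p up to 0.123).

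S100a10, the partner that holds Anxa2 at the membrane, did not pass. Its signal was 8.911, 8.996 and 9.532 in sham, 9.61, 9.48 and 10.03 in TAC-luciferase and 9.57, 9.85 and 9.53 in TAC-HDAC4-NT. Sham heart 3 overlapped the TAC-luciferase range, and the highest sham heart and the lowest TAC-HDAC4-NT heart both read 9.53 to 2 decimals. The difference from sham was 0.56 (SE 0.18, 95% interval 0.15 to 0.98, adjusted p = 0.051) in TAC-luciferase and 0.50 (SE 0.18, interval 0.09 to 0.92, adjusted p = 0.0824) in TAC-HDAC4-NT. Without sham heart 3 both passed, at 0.76 (adjusted p = 0.0124) and 0.70 (adjusted p = 0.0194), and without TAC-luciferase heart 2 the first was 0.68 (adjusted p = 0.0451). The first comparison also passed with a stricter filter (adjusted p = 0.0344) and with cyclic loess scaling (0.60, adjusted p = 0.045).

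S100a6 (calcyclin), which binds annexins and the protein Cacybp, lay just above the filter value. It read 5.82, 5.68 and 5.86 in sham, 5.91, 5.96 and 6.06 in TAC-luciferase and 6.00, 6.08 and 6.17 in TAC-HDAC4-NT. Neither TAC group overlapped sham, but the steps were small. The difference was 0.19 (SE 0.07, interval 0.04 to 0.35, adjusted p = 0.068) in TAC-luciferase, and the rise in TAC-HDAC4-NT was 0.30 (SE 0.07, 1.23-fold, adjusted p = 0.0125). The first of these passed under a trended and robust variance prior (adjusted p = 0.0442), and the second was lost without TAC-HDAC4-NT heart 3 (0.26, adjusted p = 0.0521).

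In TAC-HDAC4-NT against sham, 6 of the 7 tested genes rose and 0 fell, where 22.8% of all genes tested passed, 10.5% higher and 12.3% lower. In all 7 tested genes every TAC-HDAC4-NT heart lay above every sham heart, as in 18.3% of all genes tested. For S100a10, which did not pass, this rests on a near tie, 9.5329 in the lowest TAC-HDAC4-NT heart and 9.532 in sham heart 3. The genes that rose were the 5 that rose with luciferase, and S100a6. The median change was 0.53, against -0.01 over all genes tested. These values too describe the chosen set and are no test of it. Both TAC groups share the same 3 sham hearts, so their changes are given side by side and not as separate evidence.

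**Figure D2:**
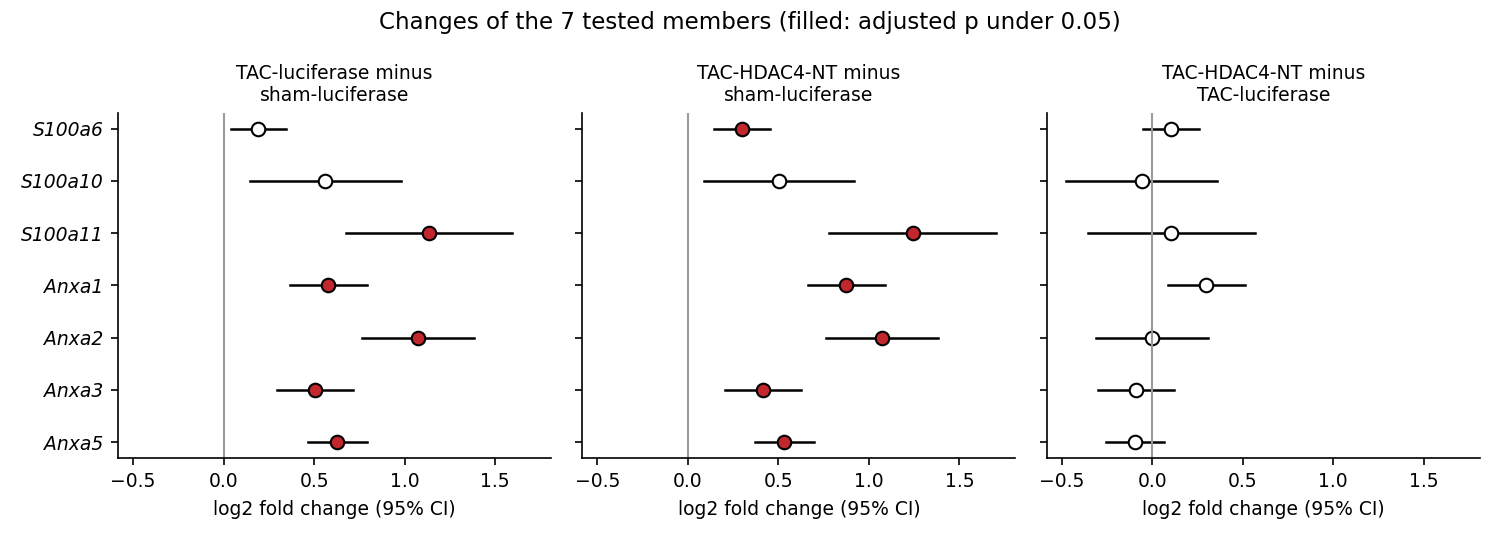
Log2 change of the 7 tested genes with 95% intervals in the 3 comparisons (horizontal axis, 0 is no change), filled points passing at an adjusted p under 0.05. S100a11 and Anxa2 are farthest to the right against sham, between 1.07 and 1.24, and all 7 points of TAC-HDAC4-NT against TAC-luciferase are open and lie between -0.10 and 0.30.

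Whether HDAC4-NT altered these genes under TAC was asked by comparing the TAC groups directly. None of the 7 tested genes passed: 0 of 7, against 0.254% of all genes tested (32 genes; 0.143% higher and 0.111% lower), with 1 of 7 at an unadjusted p under 0.05, where 1807 of the 12597 genes tested were. That gene was Anxa1, 0.30 higher with HDAC4-NT (SE 0.09, 95% interval 0.09 to 0.51, 1.23-fold, adjusted p = 0.194), and it was also the only tested member whose groups did not overlap, with all HDAC4-NT hearts higher, as in 11.6% of all genes tested. The intervals bound what the other genes could have done. For S100a11 the difference was 0.11 (interval -0.35 to 0.57), for S100a10 -0.06 (-0.47 to 0.36) and for Anxa2 0.00 (-0.31 to 0.31). Narrower intervals were found for Anxa3, -0.09 (-0.30 to 0.12), Anxa5, -0.10 (-0.26 to 0.07), and S100a6, 0.11 (-0.05 to 0.26). A difference of up to 0.57 in S100a11, or a fall of up to 0.26 in Anxa5, is therefore not excluded by these 3 hearts per group. The count of genes called in this comparison ran from 1 to 697 as single hearts were left out, with the highest count without TAC-luciferase heart 1 and the lowest without TAC-HDAC4-NT heart 1 or heart 2; the members called stayed at 0 in each of these.

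The 3 remaining genes gave signals at the low end of the array. S100a8 read 5.45, 5.52 and 5.45 in sham, 5.55, 5.75 and 5.47 in TAC-luciferase and 5.51, 5.51 and 5.46 in TAC-HDAC4-NT. S100a9, its partner in calprotectin, read 5.51, 5.56 and 5.51 in sham, 5.54, 5.67 and 5.55 in TAC-luciferase and 5.54, 5.52 and 5.51 in TAC-HDAC4-NT. For each of the pair only TAC-luciferase heart 2 lay above the filter value of 5.66, the 40th percentile of all values. In a fit of all named genes without the filter, S100a8 differed from sham by 0.11 (SE 0.07, adjusted p = 0.325) in TAC-luciferase and by 0.02 (adjusted p = 0.908) in TAC-HDAC4-NT, and S100a9 by 0.06 (SE 0.04, adjusted p = 0.39) in TAC-luciferase. A change in calprotectin RNA was therefore not detectable at these signals, which does not show its absence.

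S100a4, known as fibroblast-specific protein and also made by leukocytes, was below the filter value in all 9 hearts. It read 5.46, 5.46 and 5.55 in sham, 5.56, 5.47 and 5.54 in TAC-luciferase and 5.59, 5.64 and 5.54 in TAC-HDAC4-NT. The unfiltered fit gave 0.03 (adjusted p = 0.695) and 0.10 (adjusted p = 0.147) against sham. Beside it, 7 of 11 fibroblast markers rose in TAC-luciferase (11.2% of all genes tested) and 8 of 11 in TAC-HDAC4-NT (10.5%), while the S100a4 groups overlapped in TAC-luciferase and sham.

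TAC-luciferase heart 2 was the highest of all 9 hearts for S100a8, S100a9 and Anxa2, 3 of the 10 genes, and for 5 of 14 neutrophil markers (Lcn2, Cxcr2, Mmp8, Retnlg and Clec4d); it was the highest for 10.1% of all named genes. Lcn2, a granule protein of neutrophils that other cells also make, read 8.51 in that heart, against 7.40 and 7.62 in the other TAC-luciferase hearts, 6.64 to 7.53 in sham and 6.42 to 6.80 in TAC-HDAC4-NT. Retnlg, a neutrophil marker, read 5.81 there and 5.38 to 5.51 in the other 8 hearts. Of the 14 neutrophil markers 10, among them Ly6g, Mpo, Elane, Cxcr2, Mmp8 and Clec4d, never passed the filter value in any heart. Camp and Csf3r, which did in some hearts, were highest elsewhere. Camp read 5.61, 5.72 and 5.73 in TAC-luciferase and 5.93, 5.89 and 5.67 in TAC-HDAC4-NT, and Csf3r was highest in TAC-luciferase heart 1 (5.74). The log2 summed level of the list was 9.343 to 9.512 in sham, 9.498 to 9.899 in TAC-luciferase, the last of these in heart 2, and 9.31 to 9.38 in TAC-HDAC4-NT. Lcn2 had the highest signal of the list in every heart and was the only marker above the filter value in all hearts. This sum therefore mostly follows Lcn2. Of the 3 neutrophil markers tested, 0 passed in either TAC group against sham. The part of neutrophils in the S100a8 and S100a9 values was not tested.

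**Figure D3:**
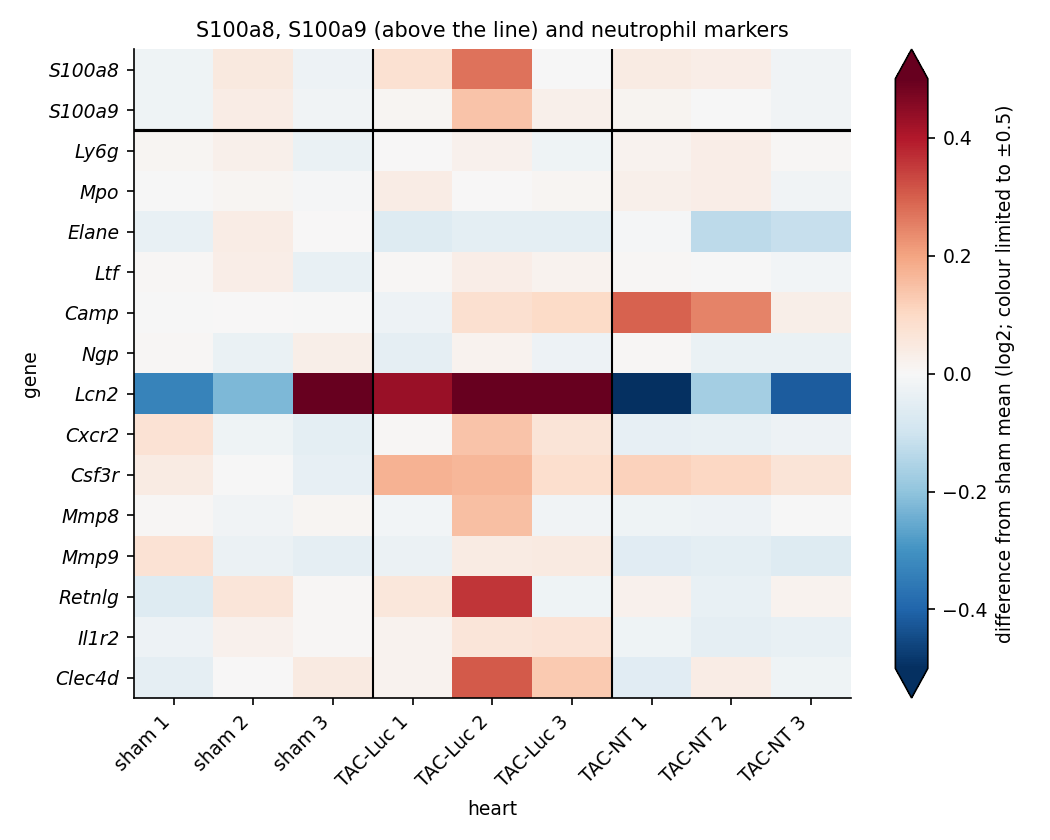
Difference from the sham mean (colour, log2, limited to 0.5 either way) of S100a8, S100a9 (above the line) and 14 neutrophil markers (rows) in each of the 9 hearts (columns). S100a8, S100a9, Retnlg and Clec4d are darkest red in TAC-luciferase heart 2, Lcn2 reaches the colour limit in several hearts of different groups, and Ly6g, Mpo and Elane show no such heart.

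Sham heart 3 was the highest of its group for 6 of the 10 genes (S100a4, S100a6, S100a10, Anxa1, Anxa2 and Anxa3), against 31.4% of all named genes. TAC-luciferase heart 3 was the highest of its group for 6 of 10 (31.0% of all) and TAC-luciferase heart 1 the lowest for 6 of 10 (33.5% of all). Members of a family measured in the same RNA share the heart's make-up, so these counts describe hearts and are no replicates.

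The other members of both families were taken from a list that left out the 10. Of 11 other S100 genes 10 were measured and 5 tested, and 0 of 5 passed in any comparison, with log2 changes from -0.04 to 0.12 in TAC-luciferase and from -0.03 to 0.25 in TAC-HDAC4-NT against sham. S100a1, the S100 protein of heart muscle that acts on calcium cycling, read 12.36 to 12.58 in sham, 12.53 to 12.66 in TAC-luciferase and 12.57 to 12.58 in TAC-HDAC4-NT, a difference of 0.12 (SE 0.06, interval -0.03 to 0.26, adjusted p = 0.215) in TAC-luciferase. S100a16, a widely expressed family member, read 7.88, 7.68 and 7.77 in TAC-luciferase and 8.02, 8.27 and 7.90 in TAC-HDAC4-NT, 0.29 apart (SE 0.10, adjusted p = 0.232). S100a1 and S100a16 were singled out after their values were seen.

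Of 8 other annexins all were measured and 4 tested, and they moved in both directions. Anxa4 rose by 0.76 in both TAC groups (1.69-fold, adjusted p = 0.000323 in TAC-luciferase and 0.000354 in TAC-HDAC4-NT), from 6.94, 7.10 and 7.10 in sham to 7.99, 7.64 and 7.79 with luciferase and 7.76, 7.86 and 7.79 with HDAC4-NT. Anxa7 rose by 0.50 (adjusted p = 0.000961) and 0.46 (adjusted p = 0.00177). Both had TAC hearts wholly above the sham hearts.

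Anxa11 went the other way. This annexin, which tethers RNA granules to moving organelles, read 9.90, 9.47 and 9.56 in sham, 8.91, 9.04 and 8.96 in TAC-luciferase and 9.08, 8.77 and 9.01 in TAC-HDAC4-NT, with no overlap between sham and TAC hearts. Of all genes tested 21.6% lay wholly below sham in TAC-luciferase and 21.5% in TAC-HDAC4-NT. Anxa11 fell by 0.67 in TAC-luciferase (SE 0.12, 1.59-fold lower, adjusted p = 0.00287) and by 0.69 in TAC-HDAC4-NT (1.61-fold lower, adjusted p = 0.00269). It was the only annexin called lower among the 4 tested outside the members, where 14.9% of all genes tested were called lower in TAC-luciferase. The member annexins Anxa1, Anxa2, Anxa3 and Anxa5 were tested too and all rose. Anxa6 was 0.14 below sham in TAC-luciferase (adjusted p = 0.249) and 0.17 below it in TAC-HDAC4-NT (adjusted p = 0.18) and passed in neither. Its TAC-HDAC4-NT hearts lay wholly below the sham hearts, as in 21.5% of all genes tested. Between the TAC groups 0 of the 4 passed.

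**Figure D4:**
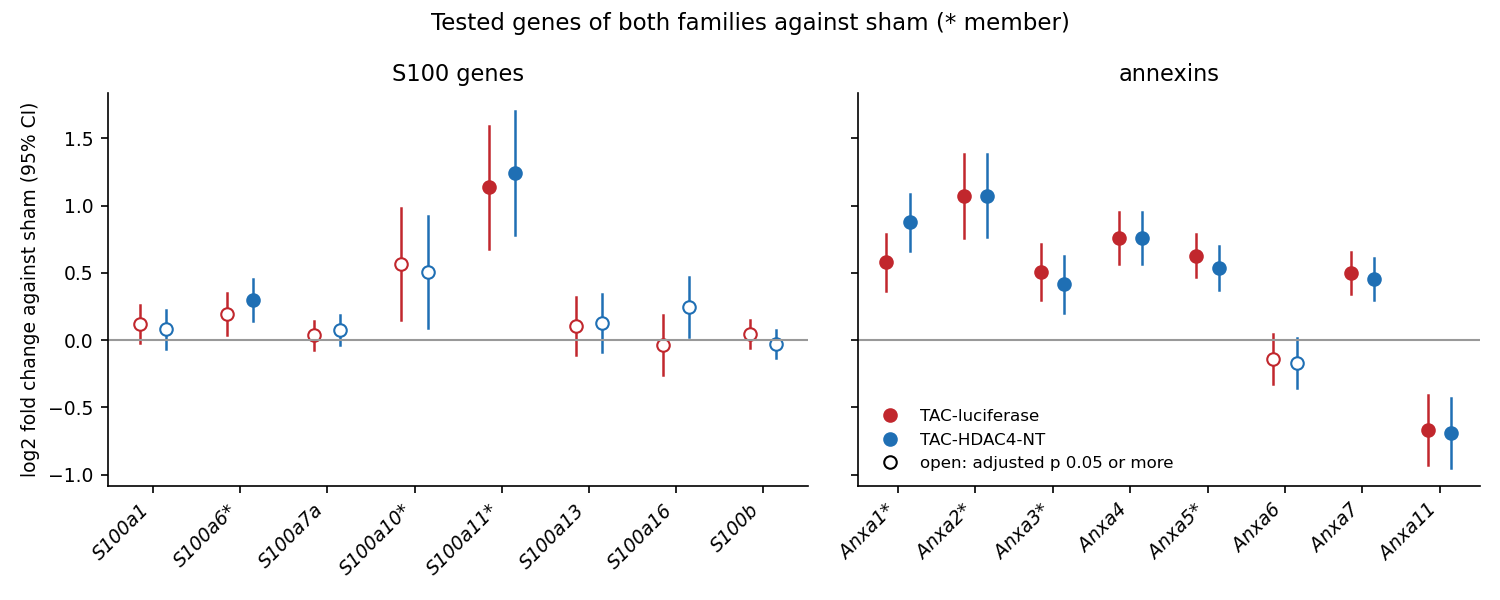
Log2 change against sham (vertical axis) of every tested S100 and annexin gene (horizontal axis) in TAC-luciferase and TAC-HDAC4-NT hearts, filled where the adjusted p is under 0.05. S100a11 reaches 1.14 and 1.24 and Anxa2 1.07 in both, the 5 other tested S100 genes stay between -0.04 and 0.25, and Anxa11 is lowest at -0.67 and -0.69.

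Receptors and binding partners came from a list of 17 genes, of which 16 were measured and 15 tested. In TAC-luciferase against sham 7 passed as higher (Tlr4, Cd14, Mcam, Plat, Plaur, Pla2g4a and Myh9) and 2 as lower (Kcnk3 and Cacybp), against 11.2% and 14.9% of all genes tested; without the filter on low signal Cd14 and Plaur did not pass. In TAC-HDAC4-NT 7 rose (Tlr4, Mcam, Ahnak, Dysf, Plat, Pla2g4a and Myh9) and 3 fell (Bsg, Kcnk3 and Cacybp), against 10.5% and 12.3%. Between the TAC groups 0 of 15 passed.

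Of the receptors of calprotectin or its parts, Tlr4 and Mcam rose against sham in both TAC groups. Ager passed in neither, and Bsg was called lower in TAC-HDAC4-NT. Tlr4, the Toll-like receptor that binds calprotectin, read 6.81, 6.77 and 6.62 in sham, 8.02, 7.67 and 7.95 in TAC-luciferase and 7.36, 7.38 and 7.57 in TAC-HDAC4-NT. The 3 groups were fully separate, with the HDAC4-NT hearts between the others. The share of all genes with HDAC4-NT hearts wholly below the TAC-luciferase hearts was not counted. The opposite separation was found in 11.6% of all genes tested. Tlr4 rose by 1.15 (2.21-fold, adjusted p = 8.61e-05) and 0.70 (1.63-fold, adjusted p = 0.0011) against sham, and the difference between the TAC groups, -0.44 (SE 0.10), did not pass (adjusted p = 0.086). Mcam, a cell-surface receptor of S100a8 and S100a9, rose by 0.69 (adjusted p = 0.00159) and 0.54 (adjusted p = 0.0062). Ager, the receptor for advanced glycation end products, differed from sham by 0.07 and 0.13 and passed in neither. Ly96, on the same list, passed in no comparison. It differed from sham by -0.13 and 0.28. Between the TAC groups it went opposite to Tlr4, 0.41 higher with HDAC4-NT (adjusted p = 0.137), with all HDAC4-NT hearts above the TAC-luciferase hearts.

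Cd14, the co-receptor of Tlr4, read 5.47, 5.52 and 5.76 in sham, 5.734, 7.003 and 6.335 in TAC-luciferase and 5.63, 5.65 and 5.67 in TAC-HDAC4-NT. Plaur, the receptor of the urokinase plasminogen activator, read 5.65, 5.63 and 5.63 in sham, 5.76, 6.65 and 6.17 in TAC-luciferase and 5.58, 5.58 and 5.61 in TAC-HDAC4-NT. TAC-luciferase heart 2 was the highest for both. Cd14 was above the filter value in 1 sham, 3 TAC-luciferase and 1 TAC-HDAC4-NT hearts and Plaur in the 3 TAC-luciferase hearts alone, so Plaur entered the test only through the group where it was high, and its call there is no support for a rise. Without the filter the adjusted p was 0.0926 for Plaur and 0.106 for Cd14. The calls of Cd14 (0.77, adjusted p = 0.0493) and Plaur (0.56, adjusted p = 0.0437) were each lost when any 1 of the 9 hearts other than TAC-luciferase heart 1 was left out, with adjusted p up to 0.136 for Cd14 and 0.102 for Plaur; without TAC-luciferase heart 2 the Cd14 change was 0.45 and that of Plaur 0.33. Without TAC-luciferase heart 1 both passed between the TAC groups, Cd14 at -1.02 (adjusted p = 0.0107) and Plaur at -0.82 (adjusted p = 0.00575). For the same reason, this Plaur call is no support for a difference between the TAC groups. With all hearts and without the filter neither passed there (adjusted p = 0.273 for Plaur and 0.377 for Cd14).

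Partners of the Anxa2 and S100a10 complex moved in both directions. Plat, the tissue plasminogen activator that binds Anxa2, rose by 0.61 (1.53-fold, adjusted p = 0.00514) in TAC-luciferase and 0.48 (adjusted p = 0.0167) in TAC-HDAC4-NT. Kcnk3, a potassium channel carried to the membrane by S100a10, fell by 0.36 (adjusted p = 0.0245) and 0.35 (adjusted p = 0.0295). Ahnak, a giant scaffold bound by the complex, was 0.28 higher in TAC-HDAC4-NT (adjusted p = 0.0272). Dysf, the membrane repair protein dysferlin that works with annexins, read 8.66, 8.70 and 8.52 in sham, 8.63, 8.66 and 8.75 in TAC-luciferase and 8.95, 8.99 and 9.06 in TAC-HDAC4-NT. Its HDAC4-NT hearts lay above all other hearts, with a rise of 0.37 against sham (SE 0.06, adjusted p = 0.00267) and a difference of 0.32 from TAC-luciferase (adjusted p = 0.0637) that passed only without TAC-luciferase heart 1 among the left-out hearts (0.29, adjusted p = 0.0479). Such a separation of the 2 TAC groups was found in 11.6% of all genes tested.

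Pla2g4a and Myh9 rose in both TAC groups. Pla2g4a, the cytosolic phospholipase restrained by Anxa1, read 5.59, 5.47 and 5.67 in sham, 5.83, 5.90 and 6.00 in TAC-luciferase and 6.15, 6.29 and 6.25 in TAC-HDAC4-NT. Its group means had the same order as those of Anxa1, an order also seen in S100a6 and S100a11 and so not particular to this pair. The difference between the TAC groups passed for neither, Pla2g4a (0.32, adjusted p = 0.0844) or Anxa1 (0.30, adjusted p = 0.194). Against sham Pla2g4a rose by 0.34 (adjusted p = 0.00739) and 0.65 (1.57-fold, adjusted p = 0.000258), and was above the filter value in only 1 sham heart. Both rises also passed in the fit without the filter (adjusted p = 0.0129 and 0.000853). Myh9, the non-muscle myosin heavy chain bound by S100a4, rose by 0.61 (adjusted p = 0.000602) and 0.54 (adjusted p = 0.00121). Cacybp fell by 0.17 (adjusted p = 0.0283) and 0.21 (adjusted p = 0.0122), and Bsg, a receptor of S100a9, fell by 0.21 in TAC-HDAC4-NT (adjusted p = 0.0459).

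Several of these partner calls were lost when 1 heart was left out. In TAC-luciferase, Kcnk3 was lost without sham heart 2 or 3 or TAC-luciferase heart 2 or 3 (adjusted p up to 0.0821) and Cacybp without sham heart 1 or 3 or TAC-luciferase heart 1 or 2 (up to 0.102). In TAC-HDAC4-NT, Bsg was lost without any 1 of the 8 hearts other than sham heart 1 (up to 0.146), Ahnak without sham heart 1 or 3 or TAC-HDAC4-NT heart 1 or 2 (up to 0.0905), and Plat without sham heart 2 or TAC-HDAC4-NT heart 1 or 3 (up to 0.0627). In the same comparison Kcnk3 was lost without sham heart 2 or 3 or any TAC-HDAC4-NT heart (up to 0.0999) and Cacybp without TAC-HDAC4-NT heart 1 (0.0548). In TAC-luciferase Bsg and Ahnak, not called with all hearts, passed without sham heart 1 and sham heart 2 respectively. In the fit that keeps only 1 TAC-luciferase heart (heart 1), the TAC-luciferase calls of Plat (0.33, adjusted p = 0.0695), Pla2g4a (0.26, adjusted p = 0.125) and S100a11-ps (0.22, adjusted p = 0.0892) were lost too, as were those of Cd14, Plaur, Kcnk3 and Cacybp. With array weights, which give noisier arrays less say, 827 of all 12597 genes tested passed between the TAC groups, against 32 in the main fit. TAC-luciferase heart 1 had the lowest weight (0.479). Of the 15 tested partners, 5 passed in this weighted fit: Tlr4 at -0.41 (adjusted p = 0.0334), Cd14 at -0.91 (adjusted p = 0.0322), Plaur at -0.75 (adjusted p = 0.0197), Dysf at 0.30 (adjusted p = 0.0176) and Pla2g4a at 0.28 (adjusted p = 0.0313). Since Plaur entered the test only through the TAC-luciferase hearts, its call here is no support for a difference.

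**Figure D5:**
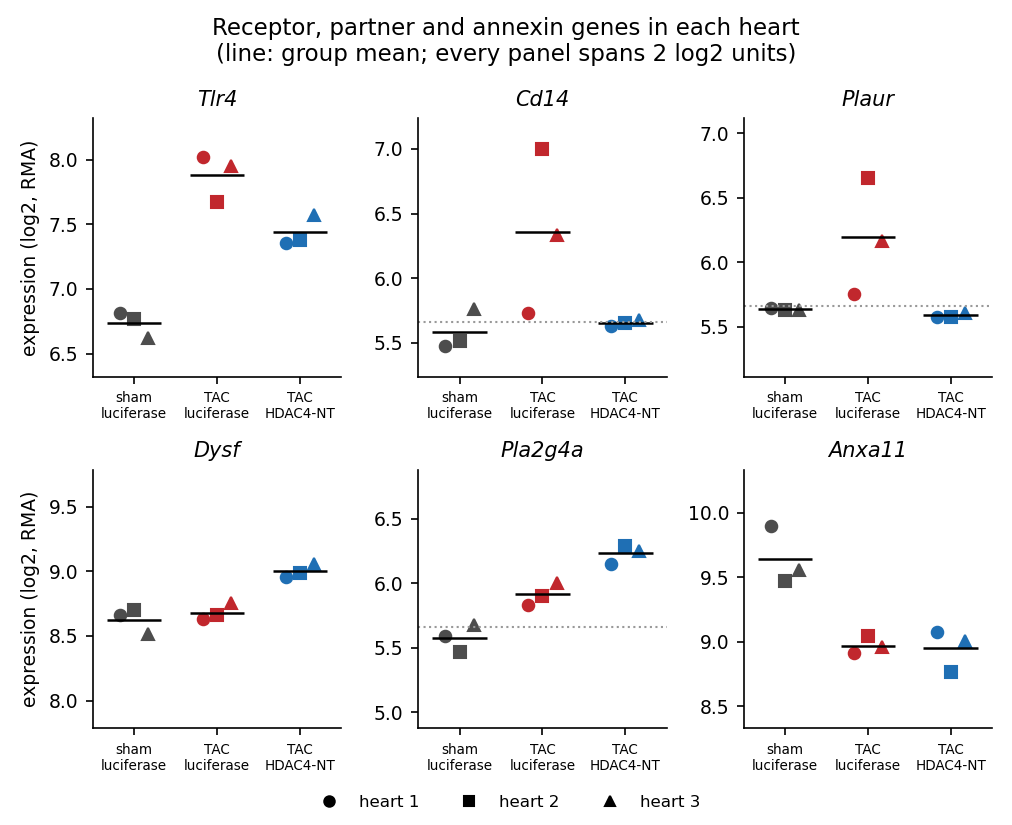
Log2 signal of Tlr4, Cd14, Plaur, Dysf, Pla2g4a and Anxa11 (vertical axis, 2 log2 units per panel) by group, with marker shapes for hearts 1 to 3, group means as black lines and the filter value of 5.66 dotted. Tlr4 is highest in TAC-luciferase, Dysf and Pla2g4a are highest in TAC-HDAC4-NT, Anxa11 is lower in all TAC hearts, and Cd14 and Plaur peak in TAC-luciferase heart 2.

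Fibroblast and macrophage markers moved beside the annexins and S100a11. The 9 cardiomyocyte markers were above the filter value in all hearts, with a log2 summed level of 16.35 to 16.43 in sham and 16.31 to 16.36 in the TAC hearts, and 1 of 9 (Myh6) was lower in TAC-luciferase. The 11 fibroblast markers summed to 12.58 to 12.71 in sham, 13.45 to 13.49 in TAC-luciferase and 13.57 to 13.62 in TAC-HDAC4-NT. The 15 measured macrophage markers summed to 11.51 to 11.65, 11.87 to 12.13 and 11.78 to 11.96, with 4 higher and 1 lower of 14 tested in TAC-luciferase (11.2% and 14.9% of all genes tested) and 6 higher and 2 lower in TAC-HDAC4-NT (10.5% and 12.3%). Their part in the rise of the S100 and annexin genes was not tested. Between the TAC groups no marker list had a gene that passed. Endothelial markers summed to 12.41 to 12.54 in sham, 12.44 to 12.52 in TAC-luciferase and 12.64 to 12.67 in TAC-HDAC4-NT. In TAC-luciferase 2 of 8 were higher (Cdh5 and Cldn5) and 2 lower (Kdr and Tie1), against 11.2% and 14.9% of all genes tested. In TAC-HDAC4-NT 1 was higher (Cdh5), against 10.5%. Cldn5 overlapped sham, was highest in TAC-luciferase heart 2 (8.68) and did not pass without the filter (adjusted p = 0.0859). Epicardial markers summed to 8.70 to 8.77, 8.76 to 9.10 and 8.68 to 8.71, and 1 of 4 tested (Wt1) was higher in TAC-luciferase (11.2% of all genes tested). Wt1 read 6.40, 7.64 and 7.04 in the TAC-luciferase hearts. It passed at an adjusted p of 0.0497 with the filter and did not pass without it (adjusted p = 0.107). Erythroid markers summed to 9.69 to 9.98, 9.75 to 9.90 and 9.61 to 10.16, adipocyte markers to 7.49 to 7.56, 7.52 to 7.54 and 7.51 to 7.55, and atrial markers to 8.96 to 10.40, 8.32 to 10.97 and 8.23 to 9.83, the widest range within a group among these lists.

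The genes whose signal followed S100a11 most closely over the 9 hearts were Dzip3 (Pearson r = 0.985), Fez2 (0.984), Prmt2 (0.973), Snx7 (0.97) and Mid2 (0.97), among the genes tested that were no members. Each rose in both TAC groups, by 0.21 (Mid2) to 0.49 (Dzip3). For the mean of S100a8 and S100a9 they were Fam43a (0.979), Nos3 (0.946), Rexo4 (0.939), Hdc (0.936) and Gm13889 (0.923). All 5 of the latter were highest in TAC-luciferase heart 2, where Nos3 read 7.93 against 7.23 to 7.38 in the other 8 hearts, so that likeness rests on 1 heart. These correlations describe hearts that also differ by group, and carry no test.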

How the data were processed

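Gene expression was measured in 9 whole mouse hearts, 3 per group, on Affymetrix arrays. The deposited log2 values were made by the authors with RMA, per the submitters' processing notes; RMA corrects background, quantile-normalizes and summarizes probes, so a shift of all genes together is removed. The sources used here do not give its version, the probe set definitions or the build. Sorted values were identical in all 9 arrays. Of 21225 probe sets, 20239 had 1 gene symbol in the array annotation used and 986 are unnamed here. Genes above the 40th percentile of all values (log2 5.66) in at least 3 of 9 arrays were kept, 12597 in all. limma 3.58.1 (R 4.3.3; lmFit, contrasts.fit, eBayes) was fitted to all 9 arrays for 3 comparisons, with Benjamini-Hochberg adjustment over the 12597 genes and a threshold of 0.05, and was tested on simulated data. The 3 groups share one estimate of spread, whose precision is limited by having 9 arrays. Fold changes are 2 to the power of the log2 difference.

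The members and lists were chosen with earlier results of these data known. Outside the 10 members, genes of the family and partner lists were named where they passed in any comparison, and otherwise counted. S100a1, S100a16, Anxa6, Ager and Ly96 were exceptions, named after their values were seen. The 5 genes most like S100a11 (the member that changed most with luciferase) and most like the S100a8 and S100a9 mean were named by Pearson r. Alternatives covered the filter, variance prior, scaling, array weights, groups in the fit, replicate block, left-out hearts, threshold and a minimum fold; those for genes outside the 10 were chosen after seeing the data.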

Additional observations from a re-analysis of the deposited data

How the results depend on the processing

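With 3 hearts per group, signals near the filter value (S100a4, S100a6, S100a8, S100a9, Cd14, Plaur, Pla2g4a) limit what can be said of those genes. The changes of the tested members against sham kept their direction in every setting run: of 55 values in TAC-luciferase 48 kept their side of the threshold, 2 lost it (S100a11 and Anxa3, both only in the fit without TAC-luciferase hearts 2 and 3, which leaves 1 heart in that group, assumed to vary like the others) and 5 gained it, and in TAC-HDAC4-NT all 55 kept it. The members called in TAC-luciferase (5) became 3 in that fit and 3 at a minimum of 1.5-fold, and those in TAC-HDAC4-NT (6) became 3 at 1.5-fold; single left-out hearts gave 5 to 6 and 5 to 7. Of the other named genes, 18 of 124 values lost and 2 gained a call in TAC-luciferase, 9 of 124 lost one in TAC-HDAC4-NT, and 5 of 124 gained one between the TAC groups, all with array weights. The cause was not tested.

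Over all genes, the 3283 calls in TAC-luciferase became 1926 without TAC-luciferase hearts 2 and 3, 1748 at an adjusted p under 0.01 and 775 at 1.5-fold (2435 to 3230 with single hearts left out). The 2872 calls in TAC-HDAC4-NT became 1579 at 0.01 and 610 at 1.5-fold (1921 to 3161). The 32 calls between the TAC groups became 10 without the filter, 103 with a filter at the 60th percentile, 75 with a trended robust prior, 827 with array weights, 10 without TAC-luciferase hearts 2 and 3, 3 at 0.01 and 14 at 1.5-fold, 1 to 697 with single hearts left out, and in a limma fit of these 2 groups alone 0 (1868 at an unadjusted p under 0.05); 0 members were called in any of these.

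With the replicate number as a replicate block, 106 genes were called between the TAC groups and 7 members in TAC-luciferase against sham, S100a6 (adjusted p = 0.047) and S100a10 (adjusted p = 0.0442) among them. Same-numbered hearts deviated together with correlations of -0.123 to 0.199, so the numbers were not taken to pair the hearts.

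Differences between the TAC groups that changed sign were not called in any setting listed here. Anxa2 gave -0.0178 with cyclic loess and -0.0428 with array weights, Kcnk3 gave -0.0114 with cyclic loess and Anxa4 0.045 with array weights. Without TAC-luciferase hearts 2 and 3, S100a10 gave 0.0387, Anxa3 gave 0.0874, Anxa11 gave 0.0397, Mcam gave 0.0735, Ahnak gave -0.0119, Plat gave 0.156, Kcnk3 gave -0.213 and Myh9 gave 0.0961. With single hearts left out the values ran from -0.0738 to 0.258 for S100a11, -0.171 to 0.102 for S100a10, -0.0322 to 0.0462 for Anxa2, -0.0861 to 0.0905 for Anxa4, -0.084 to 0.0721 for Anxa11, -0.0547 to 0.12 for Kcnk3 and -0.146 to 0.0158 for Myh9.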
